A study of Mus musculus with 6 samples.

Results

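The genes described here encode the mitochondrial respiratory chain and ATP synthase, with a small group of regulators that control how many mitochondria a cell builds. They are a fixed list of 45 genes, 42 subunits of the 5 complexes and the regulators Ppargc1a, Tfam and Nrf1, out of 20832 named genes on the array. Members were picked by gene symbol. All 45 had at least 1 probe, 61 probes in all, and all 45 passed the filter on dim probes and were among the 13728 genes tested.

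The cells were primary mouse prostate cells, cultured without serum and with added growth factors. All of them lacked p53 (p53-/-), per the labels. The 3 Rb intact cultures (p53-/- Rbf/f) carried floxed Rb and had received adenovirus with lacZ, while the 3 Rb deleted cultures (p53-/- Rb∆f/∆f) had received adenovirus with Cre recombinase, which cuts out the floxed part of Rb. RNA was taken 48 hours after infection and hybridised with 1 dye, each sample on its own Agilent array. The infection was of cultured cells, so the virus carried by a culture and its Rb status could not be told apart. The labels name neither the animals nor pooling. The series was made to find gene sets that follow Rb loss, and it speaks of independent experiments without saying how cultures were matched. A level below is the log2 intensity of a probe minus the 75th percentile of its array. A difference is the Rb deleted mean less the Rb intact mean, in log2 units ± SE of the fit, and "rose" or "fell" means a limma Benjamini-Hochberg adjusted p under 0.05 over all genes tested.

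The respiratory chain passes electrons from NADH (complex I) and succinate (complex II) through complex III and cytochrome c to oxygen at complex IV, and pumps protons on the way. ATP synthase, counted as complex V, uses the proton gradient to make ATP. Most subunits are encoded in the nucleus. PGC-1α, the product of Ppargc1a, is a coactivator that works with transcription factors such as NRF1, whose targets include many chain subunits. Tfam packages mitochondrial DNA and activates its transcription.

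Each array had 58.7% to 63.3% of its probes well above background, and no spot was saturated. Rb1 fell by 1.95 ± 0.05 (limma adjusted p = 8.76e-05) and was lower in all 3 Rb deleted arrays; whether its probe lies in the deleted part was not examined. Rb deleted 1 shared a slide with the Rb intact arrays, called the first slide here, while Rb deleted 2 and 3 were on another. A fit with slide as a block, or on the first slide alone, therefore sets the 3 Rb intact arrays against the single array Rb deleted 1, which is assumed to vary like the others, and a call lost there does not show that the slide made the difference. Rb intact 1 stood apart: it was the highest or lowest of the 6 arrays for 61.9% of all genes and for 78.6% of the 42 subunits, highest for 17 and lowest for 16. The basal markers Krt5 and Krt15 and the luminal markers Pbsn, Hoxb13 and Tmprss2 were not above background in all arrays of either group. Krt8 and Krt18, of the luminal list, and Trp63, of the basal list, were measured. Of 7 tested basal markers 1 rose and 4 fell, where 20.6% of all genes tested passed in either direction, with a summed linear level of 48.3 to 55.2 in Rb intact and 37.9 to 39.5 in Rb deleted, in units of the 75th percentile. Of 4 endothelial markers 0 rose and 1 fell, Vwf, which was not well above background on all 6 arrays. With the filter on all 6 arrays, 3 endothelial markers were tested, and 0 rose and 0 fell. Both tested leukocyte markers missed the threshold, with Ptprc and Adgre1 not above background in all arrays of either group. The part of these shifts in the values below was not tested.

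Differences between the groups were small over the listed subunits of the chain. None of the 42 subunits rose or fell (limma), while 20.6% of all genes tested passed the same threshold, 10.2% higher and 10.4% lower. At an unadjusted p under 0.05 there were 4 subunits (9.52%), all of complex I, against 35.7% of all genes. The median difference over the subunits was -0.02, with 18 above 0 and 24 below, and the range was -0.31 to 0.24. The median over all genes was 0.02. The median size of the difference, regardless of sign, was 0.06 for subunits and 0.16 for all genes. Every subunit lay above the 75th percentile of each array, while the genes tested include far dimmer ones. The median SE was 0.07 for subunits and 0.08 for all genes. Genes matched to the subunits by level were not compared.

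The intervals limit how large a change could have been missed. The 95% interval of the difference lay within ±0.5 for 41 of 42 subunits, Uqcrb being the exception, and for 68.1% of all genes tested. The difference was under 0.2 in size for 40 of 42 subunits (95.2%) and for 59.7% of all genes. Both bounds were chosen after the values were seen. The groups did not overlap for 8 subunits (19.0%), against 45.3% of all genes. Replicate spread was also small, with a median SD over subunits of 0.09 in Rb intact and 0.05 in Rb deleted (n = 3 each), against 0.12 and 0.06 for all genes.

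**Figure D1:**
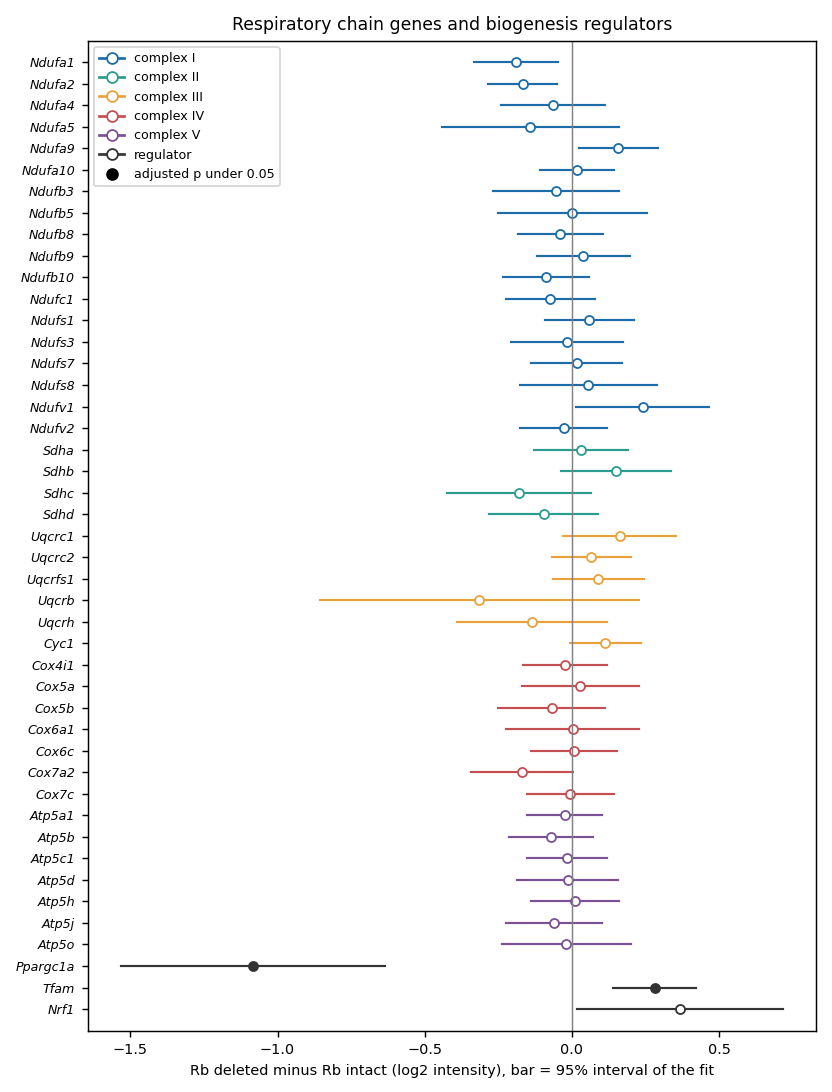
Difference between Rb deleted and Rb intact (log2 intensity) for each of the 45 genes, with bars for the 95% interval of the limma fit, coloured by complex; filled points mark an adjusted p under 0.05. Subunits lay between -0.31 and 0.24, and only Ppargc1a and Tfam (0.28) passed the threshold; the Ppargc1a point is the fitted value of a probe that was not well above background in Rb deleted.

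**Figure D2:**
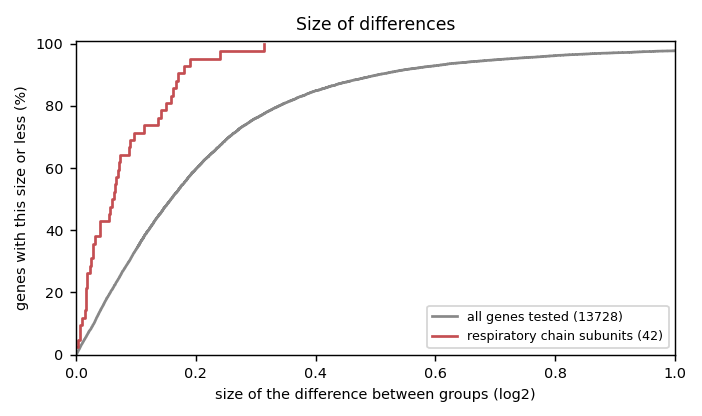
Share of genes (%) whose difference between groups has at most the size on the x axis (log2), for the 42 subunits and for all 13728 genes tested; the x axis stops at 1. At a size of 0.2 the curves stand at 95.2% and 59.7%.

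Complex I takes electrons from NADH and is the largest of the complexes. Its 18 listed genes had a median difference of -0.02 and a range of -0.19 to 0.24, and none passed the threshold. Ndufa2, an accessory subunit measured by probe A_51_P384946, stood at 5.29, 5.25 and 5.29 in the Rb intact arrays and at 5.13, 5.10 and 5.09 in the Rb deleted arrays. Every Rb deleted array was below every Rb intact array. The difference was -0.17 ± 0.05 with a limma adjusted p of 0.0582. Ndufa1, another accessory subunit, stood at 4.38, 4.29 and 4.35 in Rb intact and at 4.15, 4.22 and 4.08 in Rb deleted. These groups did not overlap either, and the difference was -0.19 ± 0.06 (limma adjusted p = 0.0709).

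A pair of complex I genes lay higher in all 3 Rb deleted arrays. Ndufv1, the subunit that binds NADH and flavin, stood at 4.22, 4.53 and 4.52 in Rb intact and at 4.62, 4.69 and 4.68 in Rb deleted. The low value in Rb intact 1 took up much of that spread, and the difference was 0.24 ± 0.09 (limma adjusted p = 0.123). Ndufa9 stood at 2.76, 2.85 and 2.87 in Rb intact and at 2.95, 3.02 and 2.99 in Rb deleted, a difference of 0.16 ± 0.06 (limma adjusted p = 0.0953). The listed core subunits other than Ndufv1 differed by -0.03 (Ndufv2) to 0.06 (Ndufs1 and Ndufs8). The 6 listed core subunits had a median difference of 0.04, and the 11 listed accessory subunits other than Ndufa4 had -0.05; this split was made after the values were seen and was not tested. The accessory genes Ndufa5, Ndufb10 and Ndufc1 had differences of -0.14, -0.09 and -0.07, and Ndufb9 and Ndufa10 had 0.04 and 0.02. Ndufa4 carries a complex I name but is now placed in complex IV, and its difference was -0.07.

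Without Rb intact 1, several of these genes crossed the threshold; 37.7% of all genes passed in that fit, against 20.6% with all 6 arrays. Ndufs8 (0.16 ± 0.04, limma adjusted p = 0.0331) and Ndufv1 (0.14 ± 0.04, adjusted p = 0.0465) were then higher in Rb deleted. Ndufa2 (-0.16 ± 0.04, adjusted p = 0.0252), Ndufa4 (-0.13 ± 0.04, adjusted p = 0.0381) and the complex III gene Uqcrh (-0.24 ± 0.06, adjusted p = 0.0346) were then lower. None of these passed with all 6 arrays. The subunits' median was -0.01 in this fit, so calls in both directions appeared around an almost unmoved centre.

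Complex II oxidises succinate, and its subunits also act in the tricarboxylic acid cycle. Its 4 genes had a median difference of -0.03, between -0.18 and 0.15. Sdhc, a membrane anchor, stood at 3.35, 3.04 and 3.00 in Rb intact and at 2.92, 2.99 and 2.93 in Rb deleted. The groups did not overlap, but Rb intact 1 lay well above the other arrays, and the difference of -0.18 ± 0.10 had a limma adjusted p of 0.252. Sdhb, the iron-sulfur subunit, stood at 4.59, 4.72 and 4.85 against 4.86, 4.91 and 4.85, a difference of 0.15 ± 0.08 (limma adjusted p = 0.221). A second Sdhb probe gave -0.03 and a second Sdhc probe also -0.03, so neither gene's larger value was seen on both of its probes. The catalytic flavoprotein Sdha differed by 0.03 and the anchor Sdhd by -0.10.

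Complex III passes electrons from ubiquinol to cytochrome c. Its 6 genes had a median difference of 0.08, between -0.31 and 0.16, and none passed the threshold. Cyc1, the cytochrome c1 subunit, stood at 4.21, 4.25 and 4.29 in Rb intact and at 4.36, 4.36 and 4.37 in Rb deleted. Each Rb deleted array was above each Rb intact array, and the difference was 0.11 ± 0.05 (limma adjusted p = 0.162). The core protein gene Uqcrc1 stood at 2.35, 2.59 and 2.58 against 2.69, 2.64 and 2.67, again with no overlap (0.16 ± 0.08, limma adjusted p = 0.196). Uqcrfs1, the Rieske iron-sulfur protein, and Uqcrc2 differed by 0.09 and 0.07.

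Uqcrb, which helps to bind ubiquinone, had the widest interval of the 42 subunits. It stood at 4.80 in Rb intact 1 and at 3.95 and 4.06 in the other Rb intact arrays, against 4.06, 3.91 and 3.90 in Rb deleted. One array thus set both its mean and its error: the difference was -0.31 ± 0.22 with all arrays and -0.05 ± 0.07 without Rb intact 1 (limma adjusted p = 0.359 and 0.622). Its other probes gave -0.18 and -0.15. For Uqcrh, the hinge protein, Rb intact 1 was instead the lowest array. It stood at 5.04 there, against 5.33 and 5.38 in the other Rb intact arrays and 5.22, 5.07 and 5.05 in Rb deleted. The Uqcrh difference was also below 0, at -0.14 ± 0.11 (limma adjusted p = 0.398).

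Complex IV reduces oxygen to water. Its 7 listed genes had a median difference of -0.01, between -0.17 and 0.03, and none passed the threshold. Cox7a2 stood at 4.22, 4.01 and 4.08 in Rb intact and at 3.97, 3.95 and 3.87 in Rb deleted. The groups did not overlap, and the difference was -0.17 ± 0.07 (limma adjusted p = 0.148). Cox5b stood at 4.87, 4.65 and 4.72 against 4.72, 4.71 and 4.61, with overlap (-0.07 ± 0.08, limma adjusted p = 0.545). The common isoform Cox4i1 differed by -0.02, Cox5a by 0.03 and Cox6c by 0.01. With Ndufa4 counted here, the median was still -0.01.

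Complex V makes ATP. Its 7 genes had the narrowest range of the 5 complexes, -0.07 to 0.01, around a median of -0.02, and the groups overlapped for every one of them. Atp5b, the catalytic β subunit, stood at 6.21, 6.18 and 6.26 in Rb intact and at 6.21, 6.15 and 6.08 in Rb deleted. The difference was -0.07 ± 0.06, with a 95% interval from -0.21 to 0.07 (limma adjusted p = 0.427). Atp5j, of the stalk, differed by -0.06 ± 0.07 (limma adjusted p = 0.541). The α subunit Atp5a1 (-0.02), the γ subunit Atp5c1 (-0.02), the δ subunit Atp5d (-0.01), and the stalk genes Atp5o (-0.02) and Atp5h (0.01) lay closer to 0.

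**Figure D3:**
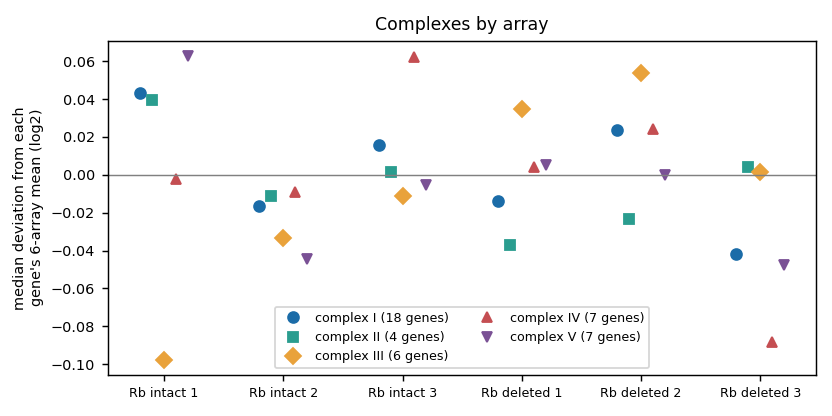
Median over each complex's genes of the deviation (log2) from the gene's own mean over the 6 arrays, by array; symbols mark the complexes, and no error is drawn. Complex III in Rb intact 1 (-0.10) and complex IV in Rb deleted 3 (-0.09) lay farthest from 0. For complex III every Rb intact array lay below 0 (-0.10, -0.03 and -0.01) and every Rb deleted array above (0.03, 0.05 and 0.002). For each other complex, arrays of both groups lay on both sides of 0.

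Over all 42 subunits the median deviation from each gene's own mean was 0.02, -0.02 and 0.01 in Rb intact 1, 2 and 3 and 0.00, 0.02 and -0.05 in Rb deleted 1, 2 and 3. The lowest array and the highest array were thus 1 of each group. Within the first slide, where 3 Rb intact arrays can be set against Rb deleted 1, the median over subunits was again -0.02.

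For 12 of the 45 genes more than 1 probe was on the array, and not all of them gave one value. Second probes of Ndufa5 and Ndufb5 gave 0.04 and -0.22, against -0.14 and 0.00 for the probes used above. The probes of Cox7c gave -0.14, -0.01 and 0.13. Those of Atp5c1 (both -0.02), Atp5h (0.01 and 0.03) and Uqcrh (-0.14 and -0.16) lay close together. Tested one by one, 2 of the member probes passed, 1 each of Ppargc1a and Tfam, beside 15.9% of all 23045 probes.

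The products of Ppargc1a and Nrf1 act on many of these genes. The 300-base windows around the regulators' start sites are given because Ppargc1a and Tfam were the only list members past the threshold and Nrf1 is the factor whose motif was searched. They come from RefSeq on build GRCm38.p6, run 5′ to 3′ on the gene's strand from 250 bases before to 50 after the start, and are in lower case with motif matches in capitals. Ppargc1a lies at chr5:51567676-51567975 (minus strand), Tfam at chr10:71237995-71238294 (minus strand) and Nrf1 at chr6:30047738-30048037 (plus strand), the first of its 2 windows.
Ppargc1a: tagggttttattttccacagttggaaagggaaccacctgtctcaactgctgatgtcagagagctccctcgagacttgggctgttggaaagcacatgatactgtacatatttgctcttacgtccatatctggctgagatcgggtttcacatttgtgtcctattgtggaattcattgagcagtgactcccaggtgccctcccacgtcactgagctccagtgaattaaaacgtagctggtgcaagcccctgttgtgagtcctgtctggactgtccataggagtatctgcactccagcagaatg
Tfam: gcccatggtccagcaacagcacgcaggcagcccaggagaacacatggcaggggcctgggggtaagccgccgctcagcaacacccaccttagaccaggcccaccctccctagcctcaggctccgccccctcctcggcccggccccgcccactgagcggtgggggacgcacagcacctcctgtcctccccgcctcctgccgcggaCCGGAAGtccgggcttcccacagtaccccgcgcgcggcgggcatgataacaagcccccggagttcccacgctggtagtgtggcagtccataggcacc
Nrf1: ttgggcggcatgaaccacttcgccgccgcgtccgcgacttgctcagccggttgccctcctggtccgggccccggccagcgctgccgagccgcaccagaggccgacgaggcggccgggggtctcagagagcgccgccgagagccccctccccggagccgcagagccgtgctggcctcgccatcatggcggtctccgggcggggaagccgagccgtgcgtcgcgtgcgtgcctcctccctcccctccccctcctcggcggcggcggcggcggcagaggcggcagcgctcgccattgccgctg

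Ppargc1a was lower in the Rb deleted cultures. Its probe A_51_P279038 stood at -5.35, -5.25 and -5.31 in the Rb intact arrays and at -5.98, -6.43 and -6.75 in the Rb deleted arrays. All 3 Rb intact arrays lay close together and above all Rb deleted arrays. The signal was well above background on 3 of 3 Rb intact arrays and on 0 of 3 Rb deleted arrays. Only a bound can therefore be given. With the main processing Ppargc1a was at least 1.77-fold lower (0.83 in log2 units). The Rb intact mean of -5.31 was set against a floor of -6.13. That floor averages, over the Rb deleted arrays, the dimmest signal that still counted as well above background, or the probe's own signal where it was brighter. The bound holds for that processing only. With another background model, normexp on the median signal, the Ppargc1a difference was smaller in size, -0.47 ± 0.10. With the slide as a block, which leaves Rb deleted 1 alone, it was -0.68.

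Ppargc1a passed the filter only through the Rb intact arrays, so its fitted log2 difference is not a measured size and its limma adjusted p of 0.0109 rests in part on signal below background. That p was 0.0502 without Rb deleted 2. With the slide as a block it was 0.0700, in the contrast with Rb deleted 1 alone. A second Ppargc1a probe was not above background on any array. The related coactivator Ppargc1b differed by -0.09 ± 0.18 (limma adjusted p = 0.731).

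Tfam rose by a small amount. Its probe A_51_P493720 stood at 1.02, 1.10 and 1.06 in Rb intact and at 1.26, 1.37 and 1.39 in Rb deleted. Every Rb deleted array was above every Rb intact array, and the array on the first slide was the lowest of the 3. The difference was 0.28 ± 0.06, a 1.21-fold rise (limma adjusted p = 0.0212). An exact two-sided permutation test of 3 arrays against 3 gave its smallest possible p, 0.1. The other Tfam probes gave 0.26 and 0.19, which did not pass in a limma fit of single probes (adjusted p = 0.0779 and 0.103). The call was also lost with the slide as a block, which leaves Rb deleted 1 alone (0.20, adjusted p = 0.244), and without any 1 of Rb intact 2 or 3 or Rb deleted 2 or 3, where the adjusted p was 0.0540 to 0.0999.

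Nrf1 stood at -0.92, -0.36 and -0.46 in Rb intact and at -0.22, -0.20 and -0.22 in Rb deleted. The groups did not overlap, and Rb intact 1 was far below the other 5 arrays. The difference was 0.37 ± 0.14 with a limma adjusted p of 0.125, and without Rb intact 1 it was 0.20 ± 0.04 with an adjusted p of 0.0219. The other Nrf1 probes gave 0.33 and 0.28, in the same direction.

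**Figure D4:**
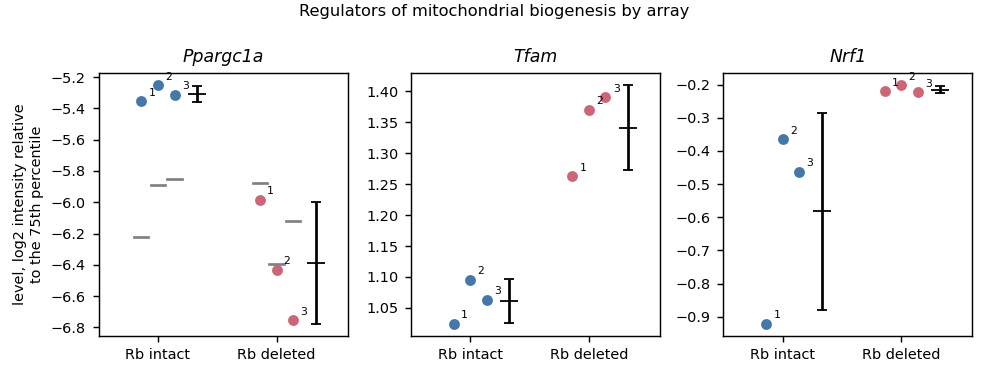
Level of Ppargc1a, Tfam and Nrf1 on each array (log2 intensity relative to the 75th percentile; numbers are replicates), with mean and SD of each group (n = 3) beside the points; the y axes do not start at 0 and differ between genes. Grey dashes in the Ppargc1a plot mark the lowest level well above background on each array, and the 3 Rb deleted points lie below their dashes.

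Promoter letters were searched for the usual binding motifs of factors that act on respiratory genes and for E2F, which Rb restrains. The table held windows for 35 of the 45 genes, 36 windows for 32 subunits. On both strands, the full NRF1 motif, whose letters are the longer run of capitals in the Cox6a1 window below, was in 2 of 36 subunit windows (5.56%), Uqcrc1 and Cox6a1, against 0.97% of all 32851 windows of the same length. Its core TGCGCATG, which can overlap the full motif, was in 3 (8.33% against 2.12%): Uqcrc1, Cox5b and Ndufb8. The ETS motif CCGGAAG, which GABPA binds, was in 8 windows (22.2% against 8.86%) and in that of Tfam, at position -47 from the start. The ERRα motif TCAAGGTCA was in 1 window, Sdhd (2.78% against 0.42%). The E2F octamers TTTGGCGC, TTTCCCGC, TTTCGCGC and TTTGCCGC were in 1 subunit window, Cox5a (2.78% against 2.26%), and in none of the regulators' windows.

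The windows with the full NRF1 motif are shown as examples, picked after the matches were seen. Uqcrc1 lies at chr9:108936398-108936697 (plus strand), where the match begins 30 bases after the start and capitals cover it with its core on both strands. Cox6a1 lies at chr5:115348909-115349208 (minus strand), with the NRF1 match at position -162 from the start and an ETS match on the other strand at position -16.
Uqcrc1: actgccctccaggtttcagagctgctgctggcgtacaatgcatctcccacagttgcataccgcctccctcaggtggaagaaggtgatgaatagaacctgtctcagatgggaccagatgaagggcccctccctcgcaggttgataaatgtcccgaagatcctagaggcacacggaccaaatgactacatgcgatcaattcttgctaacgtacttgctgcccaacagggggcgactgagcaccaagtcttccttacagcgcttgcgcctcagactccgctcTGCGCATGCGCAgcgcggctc
Cox6a1: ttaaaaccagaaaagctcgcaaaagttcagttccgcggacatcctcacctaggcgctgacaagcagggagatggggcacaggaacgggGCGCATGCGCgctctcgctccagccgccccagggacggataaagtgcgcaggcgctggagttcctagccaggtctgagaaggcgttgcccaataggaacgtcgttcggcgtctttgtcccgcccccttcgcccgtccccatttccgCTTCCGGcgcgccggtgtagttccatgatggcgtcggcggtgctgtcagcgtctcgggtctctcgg
The genes of these windows differed by 0.16 (Uqcrc1) and by less than 0.01 (Cox6a1), and neither passed the threshold. A match of letters is no measure of binding, and these arrays hold none.

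Further genes of the pathway were read from lists set by name. Among 19 other complex I subunits none rose or fell (limma), and the median difference was -0.03. At an unadjusted p under 0.05 there were 3, against 35.7% of all genes. Those 3 were Ndufa3 (-0.25 ± 0.07, limma adjusted p = 0.0539), Ndufb4 (-0.26 ± 0.08, adjusted p = 0.0638) and Ndufa11 (-0.27 ± 0.08, adjusted p = 0.0673), all accessory subunits. None of the 3 other complex III subunits passed, and none had an unadjusted p under 0.05; Uqcr11 lay at -0.20 and Uqcrq at 0.03. Of 10 other ATP synthase genes, 0 rose and 2 fell, Atp5k (-0.23 ± 0.06, limma adjusted p = 0.0453) and Atp5e (-0.26 ± 0.07, adjusted p = 0.0459), and the median was -0.09. Over all genes 20.6% passed in either direction and 10.4% were called lower. The calls of Atp5k and Atp5e held in 2 and 1 of the 6 fits that leave out an array. Of 13 proteins encoded by mitochondrial DNA, 0 had a probe named through the gene table, so they are not analysed here.

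The complex IV list, which holds isoforms used in particular tissues, had larger changes. Of its 9 tested genes, 2 rose and 3 fell, against 20.6% of all genes in either direction, with a median difference of 0.07. Cox6a2, the heart and skeletal muscle form of subunit 6A, stood at -5.00, -4.99 and -4.95 in Rb intact and at -4.13, -4.06 and -4.15 in Rb deleted. The groups were far apart and tight, and Cox6a2 rose by 0.86 ± 0.05, or 1.82-fold (limma adjusted p = 0.000340). Its signal was dim: the lowest levels well above background were -6.22, -5.89 and -5.85 in the Rb intact arrays. The fold is that of the main processing. Its common counterpart Cox6a1 stood at 6.38, 6.56 and 6.69 against 6.61, 6.58 and 6.44, with full overlap.

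Cox7a1, the muscle form of subunit 7A, moved the other way. It stood at -1.42, -1.35 and -1.23 in Rb intact and at -1.99, -1.87 and -1.91 in Rb deleted. No arrays overlapped, and Cox7a1 fell by 0.59 ± 0.07 on the log2 scale (limma adjusted p = 0.00295). Cox4i2, a form of subunit 4 best known from lung, rose by 0.40 ± 0.08 (limma adjusted p = 0.0209), from -2.26, -2.17 and -1.97 to -1.72, -1.76 and -1.72. The common subunits Cox7b and Cox6b1 fell by 0.25 and 0.22 (limma adjusted p = 0.0294 and 0.0471).

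Cox6a2 and Cox7a1 were called without each array in turn and with the slide as a block (0.85 and -0.66, limma adjusted p = 0.0108 and 0.0333). The fit of the first slide alone has the same differences on fewer arrays and missed the threshold (adjusted p = 0.0555 and 0.127). Cox4i2 and Cox7b were each called in 2 of the 6 fits that leave out an array, and Cox6b1 in 1. Some smooth muscle markers were lower in the same arrays. Of 11 tested markers of smooth muscle and fibroblasts, 0 rose and 3 fell, namely Acta2 (-1.34), Tagln (-0.92) and Cnn1 (-0.80). Over all genes 20.6% passed in either direction and 10.4% were called lower. The median difference over the 11 markers was -0.13, and 3 of them had a difference above 0. The defining smooth muscle gene Myh11 was not above background in all arrays of either group. The list's summed linear level was 535 to 568 in Rb intact and 492 to 534 in Rb deleted, in units of the 75th percentile. Their part in the isoform changes was not tested, and fewer cells of a type and less RNA per cell cannot be told apart in these bulk samples.

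Upstream of the chain, the pyruvate dehydrogenase kinases, which switch off the entry of pyruvate into the tricarboxylic acid cycle, differed in direction. Pdk2 stood at -2.51, -2.41 and -2.36 in Rb intact and at -3.00, -2.89 and -2.94 in Rb deleted. No arrays overlapped, and Pdk2 fell by 0.52 ± 0.06 (limma adjusted p = 0.00350), a call kept without each array in turn and with the slide as a block (-0.57, adjusted p = 0.0389); on the first slide alone the adjusted p was 0.145. Pdk4 fell by 0.37 ± 0.09 (limma adjusted p = 0.0363), from -3.25, -3.50 and -3.28 to -3.82, -3.69 and -3.63. Pdk1 rose by 0.27 ± 0.07 (limma adjusted p = 0.0418), from 0.52, 0.36 and 0.34 to 0.65, 0.63 and 0.75, and Pdk3 differed by 0.10 ± 0.05 (adjusted p = 0.228). The calls of Pdk4 and Pdk1 held in 2 and 1 of the 6 fits that leave out an array. Of the 21 genes of this list, 2 rose and 2 fell, a share close to the 20.6% of all genes, with a median difference of 0.05. The other riser was Idh2, the mitochondrial NADP-dependent isocitrate dehydrogenase, at 0.27 ± 0.06 (limma adjusted p = 0.0242), and citrate synthase, Cs, differed by 0.08.

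**Figure D5:**
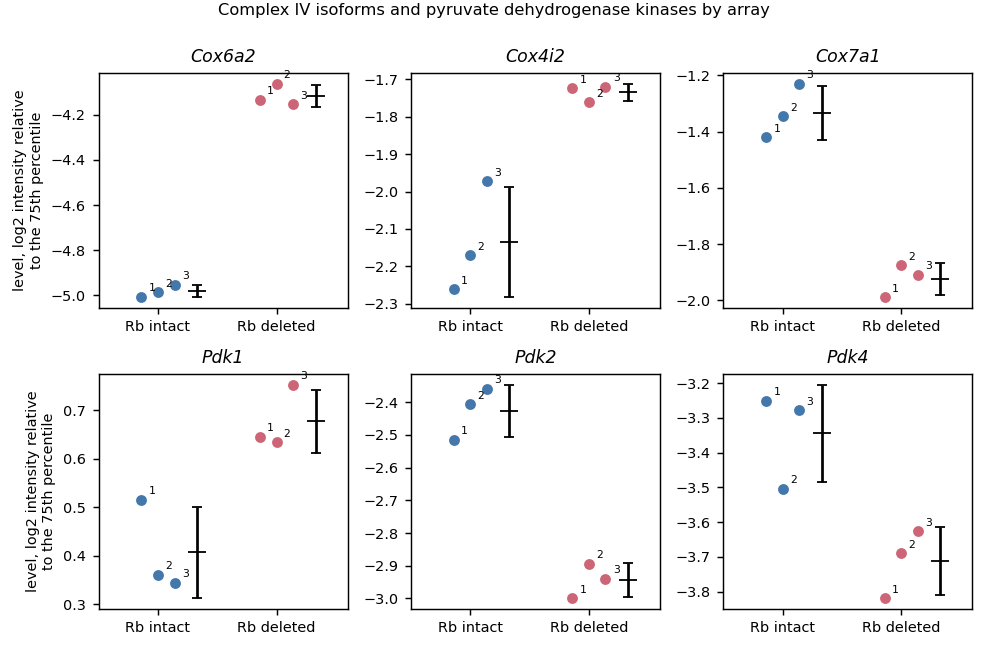
Level of 3 tissue isoforms of complex IV and 3 pyruvate dehydrogenase kinases on each array (log2 intensity relative to the 75th percentile; numbers are replicates), with mean and SD of each group (n = 3); the y axes do not start at 0 and differ between genes. Cox6a2, Cox4i2 and Pdk1 were higher and Cox7a1, Pdk2 and Pdk4 lower in all 3 Rb deleted arrays.

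Genes that build and supply the chain changed in both directions. Of 37 tested assembly factors, 4 rose and 4 fell, a share close to the 20.6% called over all genes, with a median difference of -0.02. The complex I factors Foxred1 (0.24), Ndufaf6 (0.29) and Nubpl (0.42) and the translational activator of subunit 1 of complex IV, Taco1 (0.27), rose. The complex IV factors Cox19 (-0.30), Cox14 (-0.19) and Sco2 (-0.29) and the complex I factor Ndufaf4 (-0.21) fell. Of 12 tested genes for coenzyme Q synthesis and cytochrome c, Pdss2 (0.37) and Coq2 (0.25) rose and Coq7 (-0.22) fell, beside 20.6% of all genes. Cycs, cytochrome c, differed by 0.03.

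Of 21 other regulators and factors of mitochondrial DNA, 1 rose, the deacetylase Sirt3 (0.29 ± 0.06, limma adjusted p = 0.0219), and 0 fell. Over all genes 10.2% were called higher and 10.4% lower. At an unadjusted p under 0.05, 2 were higher and 1 lower, against 35.7% of all genes in either direction. The nuclear receptor Esrra differed by -0.01 and the ETS factor Gabpa by -0.03. The mitochondrial RNA polymerase Polrmt differed by 0.15 (limma adjusted p = 0.0996) and its cofactor Tfb2m by -0.24 (adjusted p = 0.132). The list's median was 0.02, the same as over all genes.

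The mitochondrial ribosome, which translates the chain subunits encoded in the organelle, had 6 genes that rose and 0 that fell among 74 tested (limma), against 10.2% of all genes called higher and 10.4% called lower. At an unadjusted p under 0.05, 16 were higher and 1 lower, and 50 of 74 differences were above 0, with a median of 0.09. Over all genes 35.7% had such a p, and 7374 of 13728 differences were above 0, with a median of 0.02. Mrps10 stood at 2.06 in each Rb intact array and at 2.40, 2.47 and 2.39 in Rb deleted. It rose by 0.36 ± 0.05 (limma adjusted p = 0.00559), and the call held without each array in turn while with the slide as a block the difference was 0.34 (adjusted p = 0.0872). Mrps30 (0.25), Mrps9 (0.28), Mrpl38 (0.30), Mrpl15 (0.21) and Mrps31 (0.24) also rose, each called in 1 or 2 of the 6 fits that leave out an array. Of 30 genes of protein import, 2 rose, Timm17b (0.23) and Pmpca (0.23), and 0 fell; at an unadjusted p under 0.05, 5 were higher and 2 lower.

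Over all these lists 31 genes passed the threshold. In the 6 fits that leave out an array, 4 of them, Cox6a2, Cox7a1, Pdk2 and Mrps10, passed every time. All 31 passed without Rb intact 1, 8 passed without Rb intact 2, 8 without Rb intact 3, 8 without Rb deleted 1, 4 without Rb deleted 2 and 4 without Rb deleted 3. With the slide as a block 3 of the 31 passed (Cox6a2, Cox7a1 and Pdk2), beside 4.85% of all genes, and within the first slide 0 passed, beside 1.11% of all genes. With 1 Rb deleted array in these contrasts few calls were possible. With the slide as a block, some differences, such as those of Mrps10 (0.34) and Cox4i2 (0.41), were near their values in all 6 arrays. Others were smaller in size than in all 6 arrays, such as those of Sirt3 (0.21), Coq7 (-0.15) and Ndufaf4 (-0.16). Whether the slide had a part in this was not tested.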

How the data were processed

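The scanner files hold processed intensity values, which the authors obtained from Feature Extraction by background subtraction, without scaling between arrays. Per the file headers the software version was 11.0.1.1, and per the submitters' processing notes 10.7.3.1. A log2 table was deposited as well, with unstated scale and centring. It matched the log2 processed intensity up to 1 constant per array (within 0.01 for 100% of 22164 probes), runs in the same direction, and had medians of -0.52 to -0.49 per column.

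Non-control spots without outlier flags were log2 transformed, averaged to 39429 probes and shifted by each array's 75th percentile. A probe was well above background on an array where more than a share of 0.5 of its spots were. This had to hold for all 3 arrays of either group, which left 23045 probes. Probes were named through their RefSeq accession in a GRCm38.p6 gene table (27427 probes named, 12002 unnamed). The array was designed on mm9, so that table gave names only, and the files used here hold no column of gene names. A gene was its kept probe with the highest mean. The test was limma's (version 3.58.1, R 4.3.3): lmFit, then eBayes, without a block, with Benjamini-Hochberg adjustment over 13728 genes.

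The p-values measure the spread between 3 cultures a group. No pairing by replicate number was seen in the values: deviations of same-numbered arrays correlated at -0.03, -0.05 and 0.02. These correlations cannot show how the cultures were prepared or matched. The members and lists were chosen with earlier results of these data known. The text names every member past the threshold, the 2 members with the smallest p of each complex, the regulators and up to 4 genes with the smallest p of each other list; other genes were chosen after their values were seen. Data were also simulated from 13711 genes with 200 of them changed, a far smaller share than the 20.6% called in the real data. There limma recovered 54.5% of changes of 0.5 and 87.9% of changes of 1 (log2), and 4.42% of its calls were false. These rates need not hold at the larger share. The number of arrays limits the precision. The alternatives tried changed the scaling, background model, filter, probe per gene, variance model or threshold, added array weights or a slide or replicate term, took the deposited values, or left out an array. Some items of the labels and marker lists are not reported here.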

Additional observations from a re-analysis of the deposited data

How the results depend on the processing

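With all members counted, 1 rose and 1 fell. Leaving out each array gave 0 to 4 that rose and 0 to 4 that fell: without Rb intact 1, 4 and 4; without Rb intact 2 or 3 or Rb deleted 3, 0 rose; without Rb deleted 2, 0 and 0. None rose with no filter on dim probes (7.12% of all genes called), the dimmest probe of a gene (19.2%) or the replicate block (11.9%), and none fell with the filter on all 6 arrays (20.5%) or the deposited log2 values (20.9%), where Ppargc1a was not tested. With the slide as a block (4.85%), within the first slide (1.11%) and at an adjusted p under 0.01 (8.21%), 0 rose and 0 fell. The mean of a gene's probes gave 2 and 2, adding Nrf1 and Ndufa2 (22.2%). eBayes with trend and robust gave 3 that fell (21.6%), adding Ndufa1 and Ndufa2. An adjusted p under 0.1 gave 2 and 3 (30.2%). Array weights gave 5 and 5 (45.2%). The other scalings, normexp and the percentile over all spots, the last chosen after seeing the data, kept both counts.

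Tfam lost its call with no filter (0.28, limma adjusted p = 0.0662), the dimmest probe (0.26, 0.0679) and the replicate block (0.28, 0.0673). The Tfam call was also lost at a threshold of 0.01 (0.28), with the slide as a block (0.20) and on the first slide alone (0.20). Leaving out an array gave 0.26 to 0.32, with the call kept in 2 of the 6 fits. Ppargc1a, whose fitted values rest on signal below background in Rb deleted, lost its call with the slide as a block (-0.68), the first slide alone (-0.68) and at 0.01 (-1.08). Leaving out an array gave -1.29 to -0.90, with the call lost without Rb deleted 2. With normexp Ppargc1a kept its call at a smaller size (-0.47). Nrf1 passed with the mean of probes (0.33, 0.0281) and array weights (0.22, 0.0240), with 0.20 to 0.48 when an array was left out.

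The complex I median was 0.00957 with array weights and -0.05 to -0.00157 when an array was left out. The complex II median was 0.0113 with normexp and -0.05 to -0.02, and the complex III median 0.0302 and 0.05 to 0.10. The complex IV median was 0.0142 with normexp and 0.00217 with the dimmest probe. Leaving out an array gave a complex IV median of -0.03 to -0.00235, a complex V median of -0.06 to -0.00621 and a median difference over members of -0.02 to -0.00315. Cyc1 turned to -0.00356 with normexp and Sdhb to -0.0335 with its dimmest probe. The causes were not tested. Over 45 results and 23 alternatives, 704 values kept their direction and side of the threshold, 233 no longer passed, 11 newly passed, 28 moved and 2 reversed. No pairing by replicate number was seen in the values, not every array correlated best with its own number, and the replicate block changed no other member's call. Ppargc1a is limited by signal over background, and a second slide without Rb intact arrays limits every comparison.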
